A study of Mus musculus with 4 samples.

Results

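The replication-dependent histone cluster genes were examined as a family in libraries of mouse myeloid cells from mice with and without a conditional deletion in the gene of PD-1. The members were all protein-coding rows of the expression tables whose gene symbol began with Hist1h, Hist2h, Hist3h or Hist4h, which gave 53 of 24706 listed genes. That choice used symbols and gene type only, but it was made with earlier results of these data known. Of the 53, 5 encode the linker histone H1, 11 encode H2A, 15 encode H2B, 10 encode H3 and 12 encode H4. The data are 4 RNA-seq libraries labelled as myeloid cells, 2 of the genotype wt and 2 of the genotype cko. In the study, cko stands for PD-1f/f; LysM-Cre mice. LoxP sites there flank part of Pdcd1, the gene of PD-1, and Cre is expressed from the lysozyme 2 promoter in myeloid cells. The controls are called PD-1f/f mice in the results and wild-type mice in the methods, so whether the wt libraries carry the floxed allele was not settled. The results describe CD11b+ cells sorted from liver at postnatal day 3, whereas the methods name fetal livers as the source of RNA, at postnatal day 2. Nothing in the labels says whether the 2 libraries of a group came from separate animals, so p-values measure the spread between these libraries, which may be technical.

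Replication-dependent histone genes supply the bulk of the histones that package new DNA, and they are transcribed mainly in S phase. They lack introns, lie in clusters and exist in many near-identical copies. Most animal mRNAs end in a poly(A) tail, whereas these mRNAs end just after a conserved stem-loop that is bound by the stem-loop binding protein Slbp and cut with the help of U7 snRNP. The core histones H2A, H2B, H3 and H4 form the nucleosome, and H1 binds the linker DNA between nucleosomes. In cells that leave the cell cycle, part of this supply is taken over by replacement variants, such as H3.3, H2A.Z and H1.0, whose mRNAs carry poly(A) tails.

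The stem-loop is shown because it defines the mRNA ends of the family. Transcripts of GENCODE M21 (GRCm38) were searched, on the transcript strand, for the pattern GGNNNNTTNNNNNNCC with all 6 base pairs of the stem formed (G with T allowed). It was found in 39 of the 53 genes (73.58%), against 670 of 53055 genes with a transcript of at least 100 bases (1.26%). By class, 3 of 5 H1, 9 of 11 H2A, 10 of 15 H2B, 7 of 10 H3 and 10 of 12 H4 genes held it. Each line gives the 16 bases of the stem-loop in capitals with 5 bases on either side, 5′ to 3′, for genes whose levels are described further on and for Hist1h4j, which has a form of its own.

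Hist1h1c: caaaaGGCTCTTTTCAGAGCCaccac
Hist1h1e: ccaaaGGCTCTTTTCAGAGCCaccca
Hist1h2ae: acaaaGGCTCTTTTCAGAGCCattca
Hist3h2ba: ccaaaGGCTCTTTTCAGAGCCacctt
Hist1h3c: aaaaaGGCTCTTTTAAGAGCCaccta
Hist1h4d: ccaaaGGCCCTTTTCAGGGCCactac
Hist1h4i: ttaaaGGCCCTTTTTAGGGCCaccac
Hist1h4j: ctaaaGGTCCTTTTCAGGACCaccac

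These runs lie at chr13:23739507-23739532 (plus strand), chr13:23621777-23621802 (minus), chr13:23570663-23570688 (minus), chr11:58949344-58949369 (plus), chr13:23745042-23745067 (minus), chr13:23581945-23581970 (plus), chr13:22040961-22040986 (minus) and chr13:21735432-21735457 (plus), in the order of the lines. The stem differed by class. The form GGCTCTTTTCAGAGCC was held by 3 H1, 8 H2A, 8 H2B and 4 H3 genes and by none of the H4 genes found, whereas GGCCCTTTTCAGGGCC was held by 7 H4 genes only. The remaining forms differed in the loop or in 1 pair of the stem. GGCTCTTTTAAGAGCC was found in 2 H2B and 3 H3 genes, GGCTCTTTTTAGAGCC in 1 H2A gene, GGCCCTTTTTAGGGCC in 2 H4 genes and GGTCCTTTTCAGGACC in Hist1h4j. The 14 genes without a match include Hist1h1a, Hist1h1b, Hist1h2bc, Hist2h2be, Hist1h3g, Hist1h3h and Hist1h3i, and for these no match says only that the letters are not in the annotated transcripts. The annotated model of Hist1h3i holds only its 411 bases of coding sequence.

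Promoters, taken as 250 bases before to 50 after the transcript start, were matched in RefSeq (GRCm38.p6) for 48 of the 53 genes. The letters CCAAT, on either strand, stood in 40 of these 48 (83.33%), against 37.41% of all 32851 promoters. They stood in all 37 promoters of the H1, H2A, H2B and H3 genes and in 3 of 11 promoters of H4 genes (27.27%). TATAAA stood in 29 of 48 (60.42%), against 13.62% of all promoters. ATTTGCAT, the octamer known from H2B promoters, stood in 9 of 48 (18.75%), against 1.74%, and these were 5 of 11 H2A and 4 of 13 H2B promoters. The promoters of 4 genes show these patterns, with the letters of any of the 3 patterns, on either strand, in capitals. That of Hist1h1c, the H1 gene with the highest level, lies at chr13:23738557-23738856 (plus strand), that of Hist1h3i at chr13:21783348-21783647 (minus strand), that of Hist1h2bg at chr13:23571150-23571449 (plus strand) and that of Hist1h4i, an H4 gene without CCAAT, at chr13:22041313-22041612 (minus strand).

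Hist1h1c: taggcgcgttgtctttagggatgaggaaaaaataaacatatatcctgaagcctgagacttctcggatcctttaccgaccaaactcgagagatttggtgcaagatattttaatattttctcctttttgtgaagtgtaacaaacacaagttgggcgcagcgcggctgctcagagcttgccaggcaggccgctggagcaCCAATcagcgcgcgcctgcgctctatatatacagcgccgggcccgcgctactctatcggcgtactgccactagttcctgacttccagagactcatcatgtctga
Hist1h3i: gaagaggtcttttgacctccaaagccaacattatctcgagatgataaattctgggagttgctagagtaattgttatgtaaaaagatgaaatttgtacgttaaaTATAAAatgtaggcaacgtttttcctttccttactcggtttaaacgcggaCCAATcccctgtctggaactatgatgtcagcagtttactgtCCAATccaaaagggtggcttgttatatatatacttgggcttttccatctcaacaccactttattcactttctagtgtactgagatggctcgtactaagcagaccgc
Hist1h2bg: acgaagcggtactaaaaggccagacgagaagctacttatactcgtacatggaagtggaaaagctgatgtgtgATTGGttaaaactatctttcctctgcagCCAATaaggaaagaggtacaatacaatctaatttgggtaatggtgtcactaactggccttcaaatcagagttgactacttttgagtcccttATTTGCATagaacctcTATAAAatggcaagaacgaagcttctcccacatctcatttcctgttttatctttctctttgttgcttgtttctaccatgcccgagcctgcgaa
Hist1h4i: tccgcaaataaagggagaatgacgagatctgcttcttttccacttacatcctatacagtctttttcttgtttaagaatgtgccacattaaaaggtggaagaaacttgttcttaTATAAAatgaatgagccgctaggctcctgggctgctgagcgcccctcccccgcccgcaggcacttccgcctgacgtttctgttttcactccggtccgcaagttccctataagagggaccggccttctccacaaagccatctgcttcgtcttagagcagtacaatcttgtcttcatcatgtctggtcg

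The window of Hist1h2bg also holds most of that of Hist1h2ae, which starts 176 bases away on the opposite strand, so this pair shares its CCAAT and octamer letters. A match is a description of the letters and was not tested as a binding site.

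Levels are given as FPKM, the reads of a gene per kilobase of its model and per 1000000 counted reads, as the authors deposited them. The libraries held 17691505 to 22212407 counted reads, recovered from the whole-read steps of the values, and their FPKM sums were 491983 and 457127 in wt and 412778 and 403900 in cko. Pdcd1 was at 28.5 and 34.7 FPKM in wt and at 17.1 and 21.4 in cko. The difference was -0.69 on the log2 scale (SE 0.19, adjusted p = 0.218 in limma), so the targeted gene was lower in both cko libraries and still present. The labelled cell type was checked by 8 myeloid genes, of which 7 had a mean of at least 1 FPKM, among them Itgam, Ptprc, Csf3r, Spi1 and Lyz2. Of these 7, 2 were higher and 1 lower in cko with an unadjusted p under 0.05 (median log2 fold change -0.11). Among all genes tested in the same way 11.4% were higher and 4.95% lower. Itgam, which encodes CD11b, was at 51.4 and 54.3 FPKM in wt and at 48.5 and 49.4 in cko, so this defining marker was present in every library. Lyz2, the gene of lysozyme 2 and the 1 lower gene, was at 31306 and 32147 FPKM in wt and at 10422 and 8127 in cko. Its promoter drives Cre in the cko mice, so an effect of the Cre allele on Lyz2 cannot be told apart from a difference in the cells. In bulk RNA, fewer cells of a type and less RNA per cell cannot be told apart, here and in every result that follows.

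Groups were compared with limma, a linear model with a shared estimate of the spread, on log2(FPKM + 1) over the 10779 genes whose mean reached 1 FPKM. On this scale the differences of low genes are understated. The threshold of the methods, a log2 fold change of at least 1 in either direction with an adjusted p under 0.05, was passed by 0 of these genes (0%), while 1768 had an unadjusted p under 0.05. The smallest adjusted p over all genes was 0.129. An exact two-sided permutation test of 2 against 2 libraries cannot go below 0.333. Each histone gene is therefore described by its values, by whether the groups overlapped, and by the unadjusted thresholds read against all genes.

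Of the 53 histone genes, 20 passed the filter of 1 FPKM and were tested. These were 4 H1, 4 H2B, 7 H3 and 5 H4 genes, and none of the 11 H2A genes. Among the 33 others, values were low, and 20 of the 53 had at most 10 reads in every library. In 19 of the 53 at least 1 library was listed at 0. The 20 tested genes were split evenly, with 10 higher and 10 lower in cko, against 60.4% higher and 39.6% lower among all tested genes. Their median log2 fold change was -0.06, beside 0.09 over all tested genes. The sign of the family's median depended on the scaling between libraries. It was -0.15 under median-of-ratios scaling, where 13 were lower and 7 higher, and -0.15 under quantile normalization. It was 0.12 after erythroid and hepatocyte genes were removed and each library was then rescaled to the same FPKM sum. The parts of the removal and of the rescaling were not tested separately. The median of all genes moved along to -0.01, -0.02 and 0.27, so the family's median lay below that of all genes under each of these scalings.

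With an unadjusted p under 0.05, 1 histone gene was higher, Hist1h1e, against 11.4% of all tested genes, and 1 was lower, Hist1h3i, against 4.95%. With a log2 fold change beyond 1 and an unadjusted p under 0.01, the threshold of the study's results, none of the 20 was higher (1.88% of all tested genes) and Hist1h3i was lower (0.408%). Both cko libraries lay above both wt libraries for 2 of the 20, Hist1h1c and Hist1h1e, against 33.6% of all tested genes. Both lay below for 5 of the 20, Hist1h1b, Hist2h2be, Hist1h3c, Hist1h3i and Hist1h4c, against 18.0%. In either direction these were 7 of 20, against 51.6% of all tested genes, and in the other 13 the groups overlapped.

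**Figure D1:**
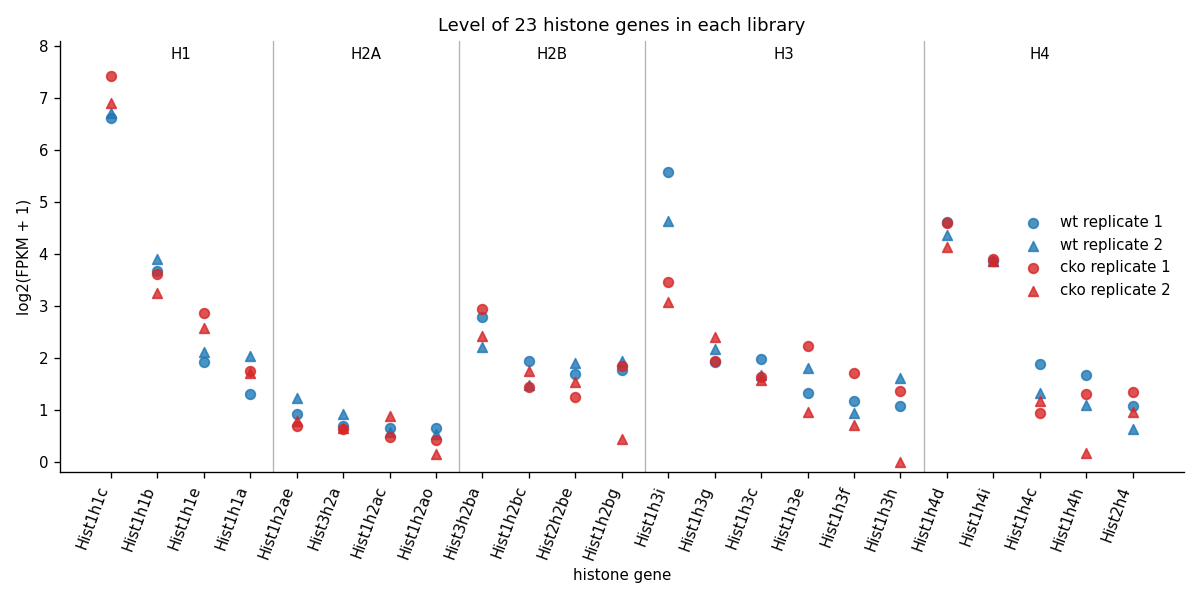
Level of the 23 histone genes described with values, as log2(FPKM + 1) (vertical axis) for each gene (horizontal axis), grouped by class. Each point is 1 library, blue for wt and red for cko, with circles for replicate 1 and triangles for replicate 2. Hist1h1c stands highest, and the wt and cko points of Hist1h3i lie farther apart than those of any other gene drawn.

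The linker histone genes held the highest level of the family and the only 2 tested members that were higher in cko without overlap. Hist1h1c (H1.2), a linker histone that many cells keep expressing outside S phase, was at 96.7 and 104 FPKM in wt and at 171 and 119 in cko. The groups did not overlap, but the cko replicates lay farther apart than the groups' nearest values. The log2 fold change was 0.50 (SE 0.20, adjusted p = 0.306 in limma), from 3060 to 4996 reads per library. Hist1h1c took 40.4% and 47.2% of the summed FPKM of the 53 genes in wt and 61.0% and 58.7% in cko, so its share was higher in both cko libraries.

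Hist1h1e (H1.4) was at 2.78 and 3.30 FPKM in wt and at 6.28 and 4.92 in cko. Both cko libraries lay above both wt libraries, with a log2 fold change of 0.70 (SE 0.20, adjusted p = 0.228 in limma). It was 0.61 without wt replicate 1 and 0.55 without cko replicate 1, where its unadjusted p exceeded 0.05. Its 1930-base model overlaps that of Hist1h2be by 496 bases and a pseudogene by 320 bases on the same strand, so part of its reads could not be assigned to it alone. Hist1h2be was at 0.435 and 0.705 FPKM in wt and at 0.480 and 0.521 in cko.

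Hist1h1d (H1.3) was at 0.097 and 0.150 FPKM in wt and at 0.223 and 0.274 in cko, from 16, 21, 31 and 36 reads. It lay under the filter and was not tested, and its groups did not overlap. Hist1h1b (H1.5), a linker histone known from dividing cells, was at 11.8 and 14.0 FPKM in wt and at 11.3 and 8.52 in cko. It was the H1 gene that lay lower in both cko libraries, with a log2 fold change of -0.36 (SE 0.20, adjusted p = 0.415 in limma). Hist1h1a (H1.1) was at 1.46 and 3.08 FPKM in wt and at 2.38 and 2.29 in cko, and its groups overlapped. Of the 5 H1 genes, 3 were thus higher and 1 lower in cko without overlap, beside 33.6% higher and 18.0% lower among all tested genes, and 1 of the 3, Hist1h1d, was not tested.

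Among the H3 genes, which encode replication-coupled H3.1 or H3.2, Hist1h3i had the largest difference of the 20 tested. It was at 46.7 and 23.8 FPKM in wt and at 9.996 and 7.43 in cko, from 426, 184, 77 and 54 reads. Both cko libraries lay below both wt libraries, and the wt replicates themselves differed widely. The log2 fold change was -1.84 (SE 0.34, adjusted p = 0.199 in limma). Without cko replicate 2 the log2 fold change was -1.64, and its unadjusted p then exceeded 0.01. The model of Hist1h3i (GRCm38 chromosome 13, 21782960 to 21783370, minus strand) is coding sequence only. Of its windows of 50 bases 87.6% also occur in other genes, 79.3% in Hist1h3h alone, and how reads that fit several copies were treated is not given in the sources used here. The value is therefore uncertain as a measure of this copy.

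Hist1h3h, whose windows are shared to 93.9%, was at 1.10 and 2.07 FPKM in wt and at 1.56 and 0 in cko, from at most 16 reads. The closest copy thus had far fewer reads than Hist1h3i in every library. Hist1h3c was at 2.93 and 2.19 FPKM in wt and at 2.12 and 1.97 in cko, lower in both cko libraries with a log2 fold change of -0.22 (SE 0.22). Hist1h3e was at 1.51 and 2.48 FPKM in wt and at 3.70 and 0.947 in cko. In Hist1h3e the 2 cko libraries lay on either side of both wt libraries, and the same held for Hist1h3f, at 1.25 and 0.927 in wt and 2.28 and 0.628 in cko. Hist1h3g was at 2.80 and 3.51 FPKM in wt and at 2.82 and 4.27 in cko, and Hist1h3d lay between 1.66 and 2.58 in all libraries, both with overlap. Of the 7 tested H3 genes 3 were lower and 4 higher in cko, against 39.6% and 60.4% of all tested genes. Their median log2 fold change was 0.03.

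The H4 genes encode the same core histone, and the 2 with the highest levels lay close together in wt and cko. Hist1h4d was at 23.5 and 19.6 FPKM in wt and at 23.1 and 16.5 in cko, with a log2 fold change of -0.13 (SE 0.21). Hist1h4i was at 13.6 FPKM in both wt libraries and at 13.9 and 13.5 in cko, with a log2 fold change of 0.01 (SE 0.15). The groups overlapped in both genes. Hist1h4c was at 2.69 and 1.49 FPKM in wt and at 0.911 and 1.24 in cko, lower without overlap (log2 fold change -0.55, SE 0.29, adjusted p = 0.396 in limma). Hist1h4h was at 2.2 and 1.13 FPKM in wt and at 1.48 and 0.120 in cko, and its low value rests on 1 read. Hist2h4 was at 1.10 and 0.554 FPKM in wt and at 1.54 and 0.936 in cko, with overlap.

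Among the H2B genes, 4 of 15 were tested and 3 of these were lower in cko, against 39.6% of all tested genes. Hist3h2ba was the highest, at 5.87 and 3.63 FPKM in wt and 6.69 and 4.33 in cko, so the difference between replicates exceeded that between groups. Hist2h2be was at 2.22 and 2.72 FPKM in wt and at 1.38 and 1.90 in cko, lower without overlap (log2 fold change -0.40, SE 0.23, adjusted p = 0.435 in limma). None of its 50-base windows occurs in another gene. Hist1h2bg was at 2.40 and 2.84 FPKM in wt and at 2.59 and 0.366 in cko, from 33, 33, 30 and 4 reads. Its log2 fold change of -0.71 (SE 0.47) therefore rested on cko replicate 2, and without cko replicate 1 it was -1.40. Hist1h2bc was at 2.84 and 1.79 FPKM in wt and at 1.71 and 2.35 in cko, with overlap. Of the 11 H2B genes not tested, 4 lay above in cko without overlap (Hist1h2bb, Hist1h2bj, Hist1h2bn and Hist1h2br) and 1 below (Hist1h2bp), each from at most 9 reads per library. Among all tested genes 33.6% lay above and 18.0% below. Hist1h2bn had 1, 0, 1 and 1 reads and Hist1h2br 1, 2, 2 and 2. A wt and a cko library thus held equal reads, and the order of these 2 genes rests on library size. Hist1h2bb was at 0 in both wt libraries and at 0.210 and 0.334 FPKM in cko, and Hist1h2bp was at 0.574 and 0.602 in wt and 0.0756 and 0.160 in cko.

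All 11 H2A genes had a mean under 1 FPKM and together gave 324 reads over the 4 libraries. The highest, Hist1h2ae, was at 0.895 and 1.36 FPKM in wt and at 0.606 and 0.723 in cko, from 14, 18, 8 and 9 reads. Hist3h2a was at 0.608 and 0.891 FPKM in wt and at 0.547 and 0.579 in cko, and its model overlaps that of Trim17 on the same strand. Hist1h2ao was at 0.563 and 0.443 FPKM in wt and at 0.333 and 0.118 in cko, from 6, 4, 3 and 1 reads. In these 3 genes and in Hist1h2an both cko libraries lay below both wt libraries, from at most 36 reads per library, and the other 6 overlapped. Hist2h2ac lay above in cko, but from 1, 0, 3 and 1 reads, so its order rests on library size. Among all tested genes 18.0% lay below and 33.6% above in this way, but none of the H2A genes reached the level at which genes were tested. Hist1h2ac was at 0.580 and 0.492 FPKM in wt and at 0.387 and 0.843 in cko, with overlap. Each of the 11 models also overlaps a miRNA gene on the opposite strand, and whether strand was used in counting is not given in the sources used here.

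**Figure D2:**
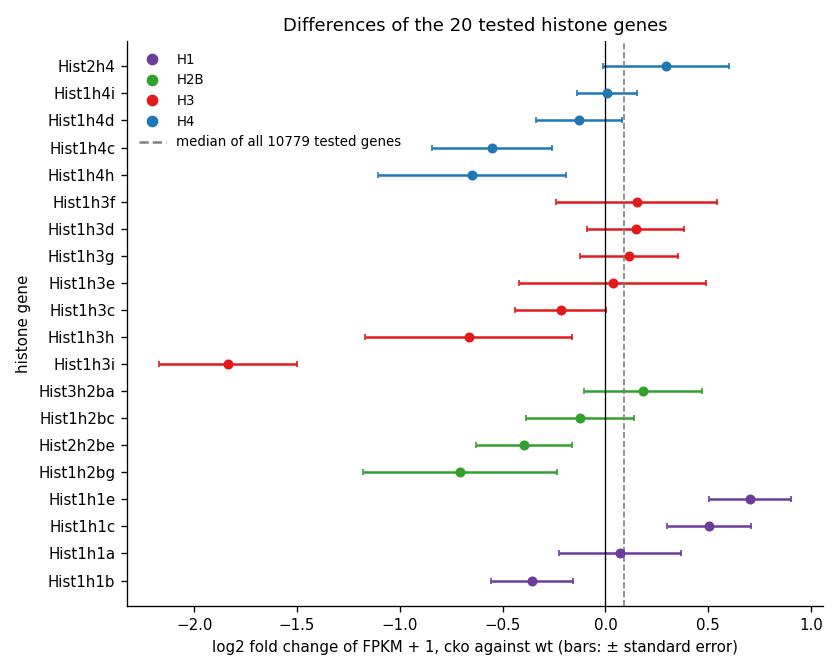
Log2 fold change of FPKM + 1, cko against wt (horizontal axis), of the 20 tested histone genes (vertical axis), with bars for the standard error and colours for the class. The solid line marks 0 and the dashed line the median of all 10779 tested genes at 0.09, and Hist1h3i at -1.84 and Hist1h1e at 0.70 lie at the ends.

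Summed over the 53 genes, the family was at 239 and 221 FPKM in wt and at 280 and 203 in cko. The means were 230 ± 13.1 in wt and 242 ± 54.5 in cko (SD, n = 2), and the groups overlapped. The log2 ratio of these means was 0.07, and its sign turned under median-of-ratios scaling (-0.05) and quantile normalization (-0.06). The sum was set largely by Hist1h1c. Without it the sums were 143 and 117 FPKM in wt and 109 and 84.0 in cko, a log2 ratio of -0.42 without overlap. As reads per 1000000 counted reads the groups without Hist1h1c overlapped, at 112 and 102 in wt and 102.4 and 83.6 in cko. On that scale the sum of all 53 genes was 263 and 264 in wt and 369 and 270 in cko, so its groups did not overlap, and the call depended on the scale in both cases. Without Hist1h3i as well, the FPKM sums were 95.9 and 92.8 in wt and 99.4 and 76.6 in cko, and overlapped. The 5 genes with the highest mean (Hist1h1c, Hist1h3i, Hist1h4d, Hist1h4i and Hist1h1b) took 79.4% to 81.8% of the sum in every library.

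By class, the H1 sum was higher and the H3 sum lower in both cko libraries. H1 was at 113 and 125 FPKM in wt and at 191 and 135 in cko, and without Hist1h1c at 16.1 and 20.5 in wt and 20.1 and 16 in cko. H3 was at 60.7 and 38.8 FPKM in wt and at 26.0 and 19.5 in cko, and without Hist1h3i at 14.1 and 15.0 in wt and 16 and 12 in cko. Both class differences thus rested on 1 gene each, and without it the groups overlapped. H4 was at 45.0 and 40.4 FPKM in wt and at 44.8 and 34.2 in cko, and H2B at 16.6 and 12.7 in wt and 15.2 and 11.2 in cko, both with overlap. H2A was at 4.13 and 4.14 FPKM in wt and at 3.27 and 3.13 in cko. The H2A sum was lower in both cko libraries, by a log2 ratio of -0.37. As reads per 1000000 counted reads, however, H2A was at 4.32 (95% Clopper-Pearson interval 3.5 to 5.28) and 4.73 (3.80 to 5.82) in wt and at 3.36 (2.58 to 4.30) and 4.30 (3.38 to 5.38) in cko. The nearest values of the groups there were 4.32 and 4.30, so they barely stayed apart. These intervals cover counting error only and overlap. They do not compare the groups, and no difference was shown at this depth.

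**Figure D3:**
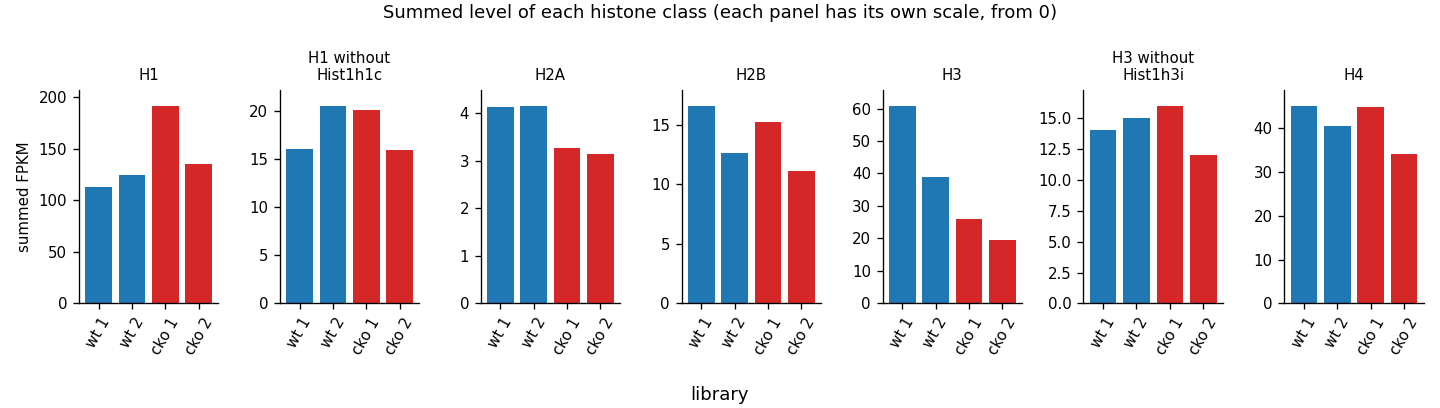
Summed FPKM of each histone class (vertical axis, from 0, with its own scale in each panel) in the 4 libraries (horizontal axis), wt in blue and cko in red. Leaving out Hist1h1c from H1 and Hist1h3i from H3 brings the groups to overlap, at 16 to 20.5 FPKM and 12 to 16 FPKM.

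Position along the genome was compared next, since these genes lie in clusters. With members up to 100 kb apart joined, they formed 6 groups on GRCm38. The largest, chr13:23531050-23764406, held 27 genes, 13 of them tested, with a median log2 fold change of 0.03. Its summed level was 151 and 153 FPKM in wt and 228 and 162 in cko, and it contains Hist1h1c. The group at chr13:21717659-21837530 held 15 genes, and all 3 tested genes, Hist1h1b, Hist1h3h and Hist1h3i, were lower in cko, against 39.6% of all tested genes. The median of -0.66 is the value of Hist1h3h, whose groups overlapped and whose sign changed without cko replicate 2. Of the 50-base windows of Hist1h3h 79.3% also occur in Hist1h3i. The summed level of this group of 15 genes was 62.5 and 44.0 FPKM in wt and 25.7 and 18.8 in cko. Without Hist1h3i it was 15.8 and 20.2 FPKM in wt and 15.7 and 11.4 in cko, where the nearest values of the groups nearly met. Without Hist1h1b as well it was 4.08 and 6.16 in wt and 4.40 and 2.86 in cko, with overlap, so the lower level of the group rested on these 2 genes. The 4 genes at chr13:22035870-22043676 were at 15.4 and 14.0 FPKM in wt and 15.8 and 14.0 in cko. The other groups held 4 genes on chromosome 3, 2 on chromosome 11 and 1 on chromosome 6.

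In 9 places 2 neighbours started within 1 kb of each other on opposite strands, 8 of them pairs of an H2A and an H2B gene. Such pairs share a promoter region. In 4 pairs one gene was higher than its partner in every library. Hist1h2bc was at 1.71 to 2.84 FPKM over the libraries, and its partner Hist1h2ac at 0.387 to 0.843. Hist2h2be was at 1.38 to 2.72, and its partner Hist2h2ac at 0 to 0.308. Hist1h3f was at 0.628 to 2.28 and its partner Hist1h2bh at 0.101 to 0.590, and Hist1h2ao was at 0.118 to 0.563 and its partner Hist1h2bq at 0 to 0.112. In the other 5 pairs neither gene was higher in every library. Hist1h2an and Hist1h2bp were at 0.573 and 0.574 FPKM in wt replicate 1, Hist1h2ag and Hist1h2bj had 10 reads each over the 4 libraries, Hist1h2ap and Hist1h2br had 7 each, and Hist1h2bf and Hist1h2ad had 1 each.

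The level went with the annotated end of the gene. Of the 39 genes with a stem-loop, 19 have a model that ends within 100 bases after it, and 17 of these were under 1 FPKM (median of the means 0.257). The other 20 have a model that runs on for over 100 bases, with a median of 1.15 FPKM, and 9 of these were under 1 FPKM. The 14 genes without a match had a median of 1.04. Across the 39 genes, Spearman's rho of the mean FPKM with the bases after the stem-loop was 0.489, given as a description, since the genes come from the same libraries and share sequence. Hist1h1c runs on for 840 bases, Hist1h1e for 1153, Hist1h4d for 770 and Hist1h4i for 330. The labels name total RNA, and whether poly(A) RNA was selected is not given in the sources used here. The part of that step in these levels was not tested.

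**Figure D4:**
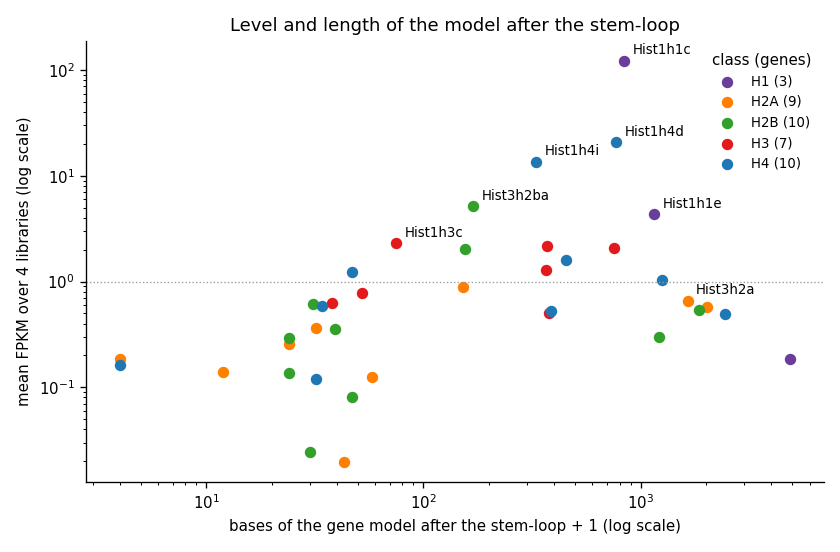
Mean FPKM over the 4 libraries (vertical axis, log scale) against the bases of the gene model after the stem-loop plus 1 (horizontal axis, log scale) for the 39 genes with a stem-loop, coloured by class. Of the 19 genes at the left, with at most 100 bases after it, 17 lie under the dotted line at 1 FPKM, against 9 of the 20 at the right.

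Sequence shared between copies also went with the level. In 23 of the 53 genes over 50% of the 50-base windows also occur in another gene, and 4 of these 23 were tested. In 7 genes under 10% do (Hist1h1a, Hist1h1b, Hist1h1c, Hist1h1d, Hist2h2be, Hist2h4 and Hist4h4), and 5 of these 7 were tested. Spearman's rho of the mean FPKM with the shared percentage was -0.470 over the 53 genes, again as a description. The part of read assignment in these levels was not tested.

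Among the replacement variants, H3f3b, H2afz and H2afx stood above every cluster gene in each library. Cluster mRNAs mostly lack poly(A) tails, and whether poly(A) RNA was selected is not given in the sources used here. The part of that step in this order was not tested, so the order is not a comparison of amounts in the cells. H3f3b, which encodes H3.3, was at 631 and 634 FPKM in wt and at 605 and 677 in cko (log2 fold change 0.02, SE 0.14). H2afz, which encodes H2A.Z, was at 502 and 466 FPKM in wt and at 328 and 326 in cko. Its groups did not overlap and its replicates lay close together (log2 fold change -0.56, SE 0.13, adjusted p = 0.212 in limma). H2afx, the variant phosphorylated at DNA breaks, was at 262 and 298 FPKM in wt and at 279 and 197 in cko, with overlap. H1f0, the linker variant of cells that have stopped dividing, was at 88.9 and 115 FPKM in wt and at 182 and 114 in cko. H1f0 and Hist1h1c thus shared their highest library, cko replicate 1, and the groups of H1f0 overlapped. H2afy, which encodes macroH2A1, was at 3.04 and 3.5 FPKM in wt and at 5.63 and 4.72 in cko (log2 fold change 0.53, adjusted p = 0.271 in limma), and H3f3a lay between 0.964 and 1.29 in all libraries. The span of H3f3a overlaps genes annotated on the opposite strand, so its level is uncertain where strand was not used in counting. Of the 11 tested variants 1 was higher and 1 lower with an unadjusted p under 0.05, and their median log2 fold change was -0.08.

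Genes that make and remove histone mRNA were counted at an unadjusted p under 0.05, beside 11.4% higher and 4.95% lower among all tested genes. Slbp was at 47.1 and 50.5 FPKM in wt and at 43.4 and 41.5 in cko (log2 fold change -0.20, SE 0.14). Of 12 tested genes of histone mRNA processing, 1 was higher, the cap-binding protein gene Ncbp1, and none lower with an unadjusted p under 0.05 (median 0.05). Ncbp1 was at 13.9 and 12 FPKM in wt and at 16.8 and 18.6 in cko, and Snrpb, a shared Sm protein, at 107 and 112 in wt and 126 and 139 in cko. Of 12 genes of histone gene transcription none was higher and 1 lower (median -0.02). That gene was Kat5, an acetyltransferase, at 20.8 and 20.5 FPKM in wt and 15.9 and 15.5 in cko, and E2f1, an activator of S phase genes, was at 3.73 and 4.19 in wt and 2.79 and 2.38 in cko. Of 9 genes of histone mRNA decay none passed in either direction (median 0.18). The terminal uridyltransferase gene Zcchc11 was at 1.47 and 1.97 FPKM in wt and 2.16 and 2.73 in cko, and the exonuclease gene Dis3l2 at 1.01 and 0.877 in wt and 1.5 and 1.72 in cko.

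Among 21 tested histone chaperone genes, 4 were higher and 1 lower with an unadjusted p under 0.05, with a median log2 fold change of 0.10. Supt16, a subunit of the FACT complex, was at 10.9 and 7.23 FPKM in wt and at 14.1 and 16.1 in cko. Its partner in FACT, Ssrp1, lay the other way, at 35.6 and 31.9 in wt and 31.2 and 28.8 in cko. Rbbp4, a subunit of the assembly factor CAF-1 and of other complexes, was at 20.7 and 24.9 in wt and 16.8 and 15.0 in cko. The other CAF-1 subunits lay the other way. Chaf1a was at 6.40 and 10.6 in wt and 15.5 and 13.3 in cko, and Chaf1b at 9.58 and 9.53 in wt and 15.3 and 12.3 in cko. Of 35 tested DNA replication genes, 3 were higher and 2 lower, and 29 had a log2 fold change above 0 (median 0.17). Among all tested genes 60.4% were above 0 (median 0.09). Prim2, a primase subunit, was at 3.56 and 3.98 FPKM in wt and at 6.43 and 5.75 in cko, whereas the clamp loader gene Rfc4 was at 36.4 and 36.2 in wt and 23.2 and 25.2 in cko. Of 21 tested mitosis genes none was higher and 2 were lower (median -0.02). Cdk1, the mitotic kinase, was at 15.4 and 13.8 FPKM in wt and at 10.8 and 9.77 in cko, and Nusap1, a spindle protein, at 130 and 106 in wt and 87.8 and 78 in cko. The lists are described by these counts, beside 11.4% higher and 4.95% lower among all tested genes.

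**Figure D5:**
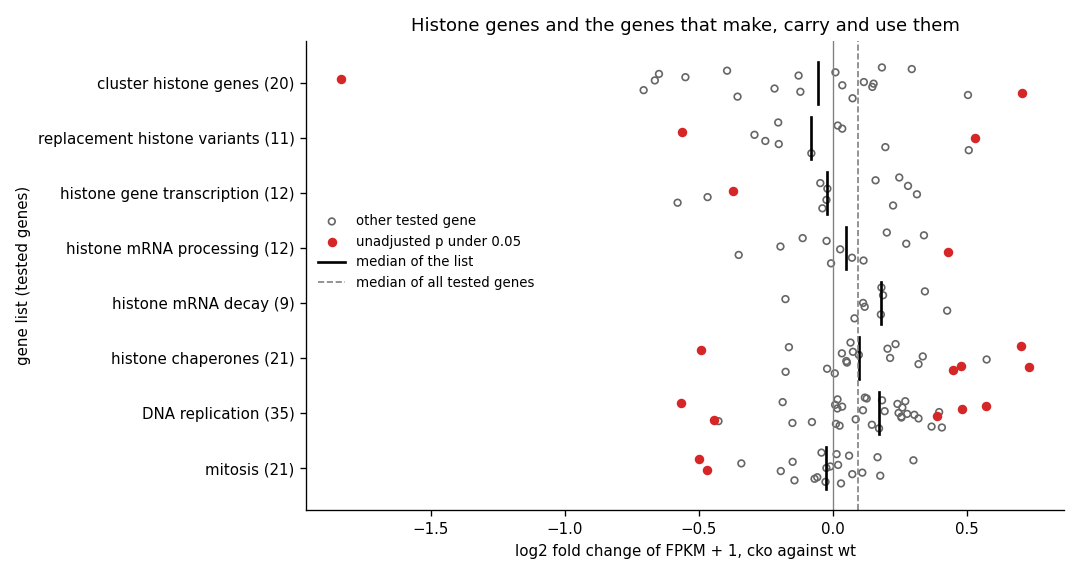
Log2 fold change of FPKM + 1, cko against wt (horizontal axis), of each tested gene of the histone clusters and of 7 related gene lists (vertical axis, with the number tested). Filled red points have an unadjusted p under 0.05, black bars mark each list's median, and the dashed line marks the median of all tested genes at 0.09. The list medians lie between -0.08 and 0.18.

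Markers of other blood and liver cells were counted in the same way, beside 11.4% higher and 4.95% lower among all tested genes. Whatever the p, 39.6% of all tested genes had a log2 fold change below 0. Of 18 tested erythroid genes 17 had a log2 fold change below 0, 8 of them with an unadjusted p under 0.05 (median -0.62), and their summed level was 3864 and 2426 FPKM in wt and 1490 and 1593 in cko. Of 9 tested hepatocyte genes 8 were below 0 (median -0.44), with sums of 90.2 and 151 FPKM in wt and 63.9 and 78.2 in cko. Of 11 late neutrophil genes 6 were lower and 2 higher with an unadjusted p under 0.05 (median -0.52), and of 5 early neutrophil genes 2 were higher (median 0.35). The late neutrophil sums were 161036 and 136971 FPKM in wt and 110237 and 91586 in cko. Of 9 monocyte genes 2 were higher (median 0.39), and of 9 macrophage genes 1 was higher (median 0.08). Of 6 tested B cell progenitor genes 2 were lower (median -0.51), of 2 T cell genes 1 was lower (median -0.68), and of 2 megakaryocyte genes none passed in either direction (median -0.16). No gene on these lists was at 0 in every library. The results describe a CD11b+ sort and the methods name livers, and the source of the erythroid and hepatocyte RNA was not tested. Early neutrophil and erythroid precursors are known to divide. The part of these cell types in the histone levels was not tested.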

How the data were processed

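The deposited files hold 1 FPKM value per gene and library, which the authors made from reads per gene. The submitters' processing notes name Bowtie2 2.2.3, TopHat2 2.0.12, HTSeq 0.6.0 and the build mm9, but 92.61% of the gene positions, those of all 53 histone genes included, are identical to GENCODE M21 (GRCm38). How multiply mapped reads and strand were treated is not given in the sources used here. Reads were recovered from the FPKM steps of single-exon genes, of which at least 99.94% were whole within 0.1 in each library. The difference between groups was fitted with the lmFit and eBayes functions of limma 3.58.1 (R 4.3.3), which allowed the variance a trend on the mean. Values entered as log2(FPKM + 1) for all genes whose mean reached 1 FPKM, with Benjamini-Hochberg adjustment over all of them. The fit was also run on simulated reads with the same spread for all genes. That run does not show how the fit performs for genes with few reads or shared sequence. Stem-loops, shared windows and promoter letters were counted with Python 3.11.15.

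The members and gene lists were chosen with earlier results of these data known. Values in every library are given for the 4 members with the highest mean in each class, the 5 tested with the lowest and the 5 with the highest log2 fold change, for the 2 genes with the lowest p of each related list, and for Pdcd1. The rule also named 2 genes of each of the 10 marker lists. Where 2 rows had the same symbol, the row whose identifier has it in GENCODE M21 was used (Itgam). Of these lists mainly counts are given, since no histone value turns on a single marker. Hist1h1d, Hist1h2bp, Hist1h2be, Hist1h3d, Itgam, Ssrp1, Chaf1a, Chaf1b, the other untested H2A and H2B genes and the genes of the pairs were named after their values were seen. Alternatives were pseudocounts of 0.1 and 0.01, testing every gene or those with a mean from 5 FPKM, rescaling by median-of-ratios or quantiles, dropping erythroid and hepatocyte genes, no trend, limma voom applied to the recovered reads of genes averaging 10 or more, the replicate number as a block, protein-coding genes only, and each library left out in turn. Wherever erythroid and hepatocyte genes were removed, each library was then rescaled to the same FPKM sum. A crossed block, the sum of reads per 1000000 counted reads and the sum without Hist1h1c were added after the values were seen.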

Additional observations from a re-analysis of the deposited data

How the results depend on the processing

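No gene passed the methods threshold, but 2 did with voom on recovered reads and 1 with the crossed block, none of them a histone gene. Of all tested genes 203 were higher and 44 lower at a log2 fold change beyond 1 with an unadjusted p under 0.01. The higher ones numbered 101 at a minimum mean of 5 FPKM, 350 after removal of erythroid and hepatocyte genes and 129 among protein-coding genes. The lower ones numbered 27 without a filter, 25 at a minimum mean of 5 FPKM, 72 under median-of-ratios scaling, 74 under quantile normalization and 17 after that removal. Leaving out each library in turn gave 110 to 404 higher and 26 to 76 lower genes.

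At the same threshold 1 histone gene was lower, Hist1h3i, and 0 to 2 were lower with a library left out. None was left without cko replicate 2, and Hist1h2bg was added without cko replicate 1. At an unadjusted p under 0.05, 1 histone gene was higher, beside 3 without a filter, 0 at a minimum mean of 5 FPKM, and 2 each after removal of erythroid and hepatocyte genes, with voom, with the crossed block and among protein-coding genes (Hist1h1c joined Hist1h1e in each), and 0 to 2 with a library left out, the 0 without wt replicate 1 and without cko replicate 1. At that threshold 1 was lower, beside 2 without a filter and 1 to 4 with a library left out, the 4 without cko replicate 1. The median log2 fold change of the tested histone genes was -0.06, and became -0.15 under both scalings, 0.12 after the removal, -0.13 with voom and -0.25 to 0.0064 with a library left out. The log2 ratio of the summed FPKM was 0.07, and became -0.05 under median-of-ratios scaling, -0.06 under quantile normalization, 0.28 after the removal, 0.28 as reads per 1000000 counted reads, 0.28 without genes sharing over 50% of their windows, 0.10 at a minimum mean of 5 FPKM, -0.42 without Hist1h1c and -0.18 to 0.28 with a library left out. The causes were not tested.

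The labels number the replicates in both groups. Differences between replicates 1 and 2 correlated at -0.163 across the groups, which gave no sign of pairing by number. This correlation cannot exclude a shared origin of libraries, and the labels do not say how they relate. With the replicate block 215 genes were higher and 43 lower at a log2 fold change beyond 1 with an unadjusted p under 0.01, and the histone counts and the median of -0.06 did not move. With the crossed block 298 were higher and 65 lower.

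Of 903 values of 59 named genes under these alternatives, 37 had another sign than in the main fit. Among them S100a8, a late neutrophil gene, went from -1.07 to 0.16 under quantile normalization. Outside the histone clusters, signs also changed for H3f3a, H3f3b and Slbp and for the marker genes Marco, Pf4 and Itga2b. Among the named histone genes, signs changed only for 8 whose groups overlapped. With 2 libraries per group and few reads in most of the 53 genes, only large differences could be shown.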
